A study of Mus musculus with 24 samples.

Results

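The genes described here encode respiratory complex I (NADH:ubiquinone oxidoreductase) and the proteins that assemble it. They were all rows of both deposited count tables whose symbol is Nduf followed by a, b, c, s, v, ab or af and a number. The rule gave 44 of 24062 gene symbols, 37 of them for subunits and 7 for assembly factors (the Ndufaf genes). Polyadenylated RNA of quadriceps muscle from C57BL/6 mice was sequenced in 24 libraries of 9 groups. Corrected mice carried the delEx44 allele, which lacks exon 44 of the dystrophin gene Dmd, and were injected intraperitoneally on postnatal day 4 with an AAV9 vector for a guide RNA and another for SpCas9. Mice named delEx44 carried the same allele without that treatment, and WT mice had intact Dmd. Each genotype had 3 sedentary libraries at 4 weeks, 2 libraries at 8 weeks after 1 month of running downhill every other day (15 degree decline, 12 m per min) and 3 sedentary libraries at 18 months. Corrected mice at 4 and 8 weeks received 8e13 vg per kg of each vector, with a self-complementary guide RNA vector. Those at 18 months received 2.5e14 vg per kg of a single-stranded guide RNA vector and 5e13 vg per kg of the Cas9 vector. Age, dose and vector type therefore cannot be told apart in corrected mice, and in every genotype the run mice were also older than the 4-week mice, so running and age cannot be told apart there.

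Complex I passes electrons from NADH to ubiquinone and pumps protons across the inner mitochondrial membrane. Its matrix arm holds the N module, which oxidises NADH, and the Q module, which reduces ubiquinone, and its membrane arm pumps the protons. The core is encoded partly in mitochondrial DNA and partly in the nucleus, and the many accessory subunits are nuclear. Assembly factors build the modules and are absent from the finished enzyme. Muscle fibres depend on the respiratory chain for sustained work, and loss of nuclear complex I genes is a known cause of human mitochondrial disease. The subunits encoded in mitochondrial DNA were not analysed here.

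Gene counts came to between 30552867 and 38090522 per library at 4 and 8 weeks and between 23125930 and 31254175 at 18 months. Dmd stood at 155 to 172 CPM (counts per 1000000, scaled with TMM factors) in corrected, 36.1 to 41.8 in delEx44 and 204 to 240 in WT muscle at 4 weeks. After running the ranges were 88.8 to 95.5, 40.7 to 41.8 and 148 to 160 CPM in corrected, delEx44 and WT muscle, and at 18 months 195 to 304, 84.2 to 86.7 and 337 to 425 CPM. Counts per gene cannot tell transcripts with exon 44 from those without it. All 12 fast fibre genes were detected in every library, with sums of 69600 to 258000 CPM, as the tissue label asks. Replicate 3 of 4-week WT stood apart with 238 CPM of neutrophil genes and 57.6 CPM of red cell genes, against 0.315 and 0.542 CPM and 3.59 and 6.93 CPM in the other 4-week WT libraries.

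The scale of the libraries bears on every value that follows. Without scaling factors, subunit counts made up 0.86%, 0.8% and 0.843% of gene counts in the corrected 4-week libraries, 0.785%, 0.731% and 0.801% in delEx44 and 0.791%, 0.842% and 0.731% in WT. These shares overlapped between delEx44 and WT. TMM sets the typical gene to no change, whereas scaling by total counts alone put the median of all genes at 0.39 on the log2 scale for delEx44 against WT at 4 weeks. It put that median at −0.33 for corrected against delEx44 at 4 weeks, at 0.12 and −0.12 for the same pairs after running and at 0.35 and −0.30 at 18 months. Fold changes below are TMM-scaled log2 values ± standard error (SE) from edgeR, and thus changes relative to the typical gene. A gene is called, or said to be higher or lower, where its adjusted p (Benjamini-Hochberg over all genes tested) was under 0.05.

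Of the 37 subunit genes, 36 passed the filter on low counts in each fit. Ndufs5, an accessory subunit gene, had 0 counts in all 24 libraries, and the cause was not tested. Per kilobase of annotated exon, the highest subunit level in 4-week WT muscle was that of Ndufb9, an accessory subunit of the membrane arm, at 420 ± 35.3 CPM per kb (SD, n = 3). Ndufa4, also described as a complex IV subunit, had 359 ± 36.3 CPM per kb, a difference from Ndufb9 of less than the summed SDs. The lowest detected were Ndufb4 with 11.3 ± 0.623 and Ndufab1, the mitochondrial acyl carrier protein, with 4.25 ± 0.293 CPM per kb. These orders depend on the length used, which counts every annotated exon base (1916 for Ndufb4 and 6883 for Ndufab1). In CPM Ndufab1 (29.2 ± 2.01) was above Ndufb4 (21.7 ± 1.22). Assembly factors lay between 41.2 ± 4.87 CPM per kb for Ndufaf1 and 4.18 ± 0.252 for Ndufaf2. This range overlapped that of the lowest subunits, among them Ndufv3 with 40.7 ± 1.99 CPM per kb. GENCODE vM21 names gene copies of Ndufab1, Ndufb4, Ndufs6 and Ndufa11 (Ndufab1-ps, Ndufb4c, Ndufs6b and Ndufa11b), so the levels of these 4 genes are uncertain.

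Subunit genes were lower in delEx44 than in WT 4-week muscle with TMM scaling. The summed subunit level was 6350, 6180 and 7080 CPM in the delEx44 libraries, against 9070, 9290 and 7970 CPM in WT libraries. The groups did not overlap, and the lowest WT library was replicate 3, the one with blood cell transcripts. With TMM scaling 33 of 36 subunits were lower in delEx44 and 0 higher (25% of all genes were called lower), whereas with total counts alone 3 were lower and 2 higher, Ndufa2 and Ndufab1. The subunit median was −0.39, against −0.00 over all genes, and with total counts alone it was 0.00454 against 0.39, so that the distance from the typical gene was −0.388 either way. In 31 subunits no delEx44 library reached the lowest WT library (28.7% of all genes). Without WT replicate 3 the count was 33 and the median −0.445.

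**Figure D1:**
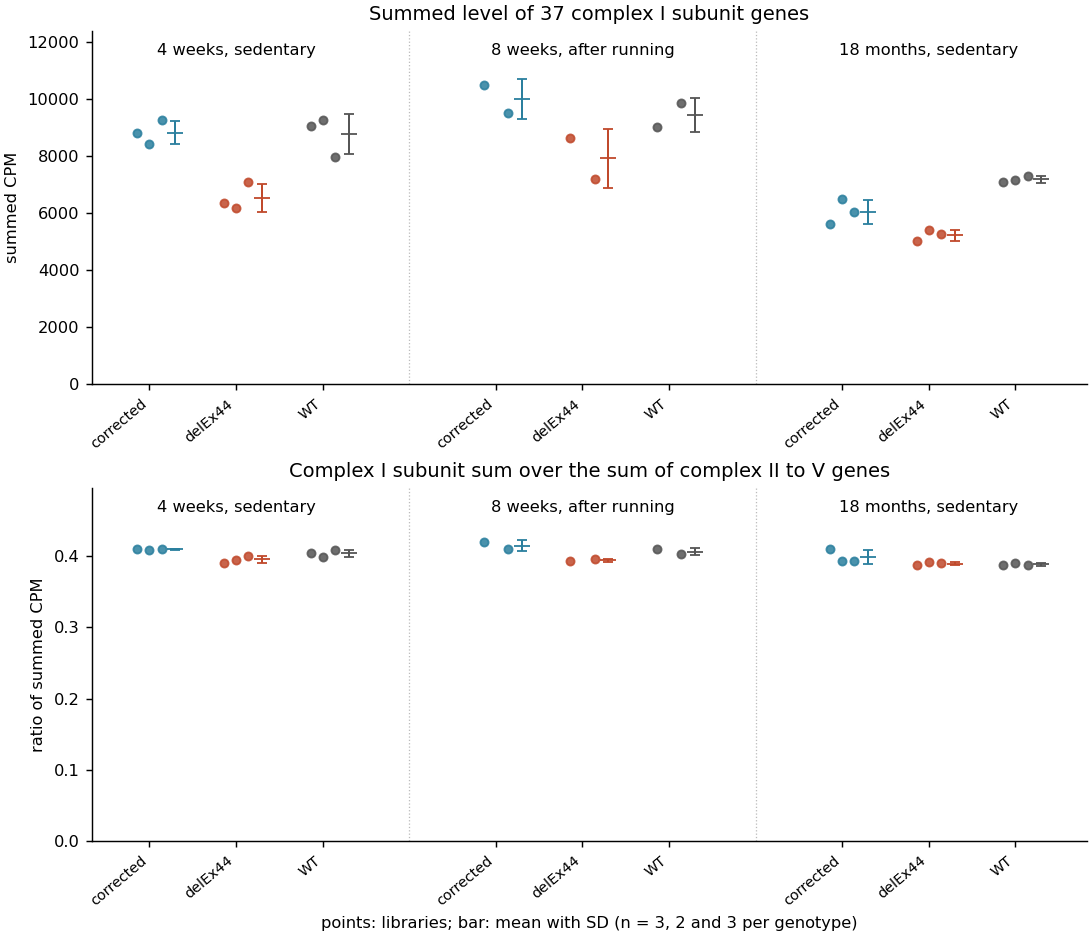
Summed level of the 37 complex I subunit genes (upper panel, TMM-scaled CPM) and its ratio to the summed level of complex II to V genes (lower panel) in every library, with the mean and SD of each group; levels at 18 months come from a separate scaling. The delEx44 libraries lie below WT at 4 weeks and 18 months on this scale, which total counts alone do not show at 4 weeks, while the ratio stays between 0.387 and 0.42 in all 24 libraries.

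The 6 nuclear core subunits described here were all called lower in delEx44 at 4 weeks with TMM scaling. Under total counts alone none of the 6 was called, and Ndufv2, Ndufs3 and Ndufs8 turned to 0.00548, 0.0261 and 0.103 on the log2 scale. Ndufv1, which binds NADH and the flavin, stood at 219, 218 and 236 CPM in delEx44 and at 341, 333 and 295 CPM in WT (−0.53 ± 0.0843, adjusted p = 0.00022). Its groups did not overlap. Ndufs1, the largest iron-sulphur subunit, had 466, 468 and 512 CPM in delEx44 and 722, 777 and 596 CPM in WT (−0.53 ± 0.107, adjusted p = 0.0011). Ndufs7, which carries the iron-sulphur cluster next to ubiquinone, had 131, 125 and 148 CPM in delEx44 and 185, 183 and 172 CPM in WT (−0.42 ± 0.0907, adjusted p = 0.002). Every delEx44 library was again below every WT library.

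For Ndufv2, an iron-sulphur subunit of the N module, the values were 362, 352 and 405 CPM in delEx44 and 496, 541 and 432 CPM in WT (−0.39 ± 0.0999, adjusted p = 0.0055). Ndufs3, a scaffold of the Q module, stood at 135, 134 and 151 CPM in delEx44 and 185, 192 and 166 CPM in WT (−0.37 ± 0.0916, adjusted p = 0.0045). Ndufs8, which carries a pair of iron-sulphur clusters, stood at 132, 124 and 148 CPM in delEx44 and 166, 183 and 146 CPM in WT (−0.29 ± 0.0992, adjusted p = 0.025). Of these 6, Ndufs8 was the only one whose groups overlapped, through delEx44 replicate 3 and WT replicate 3.

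Among accessory subunits the largest differences at 4 weeks were those of Ndufa10 and Ndufa12. Ndufa10, a membrane-arm subunit with a nucleoside kinase fold (chromosome 1, 92439010 to 92473860, minus strand, GRCm38), had 199, 211 and 215 CPM in delEx44 and 353, 311 and 300 CPM in WT (−0.63 ± 0.0782, adjusted p = 3.1e-05). Ndufa12, which sits where the N and Q modules meet, had 76.5, 79.8 and 89.9 CPM in delEx44 and 126, 132 and 114 CPM in WT (−0.60 ± 0.0857, adjusted p = 9e-05). Both were still lower with total counts alone, Ndufa10 at −0.227 (adjusted p = 0.0039). The 3 subunits not called were Ndufa2 (−0.16, 95% interval −0.328 to −0.00127, adjusted p = 0.12), Ndufab1 (−0.19, −0.365 to −0.0111, adjusted p = 0.098) and Ndufb3 (−0.22, −0.416 to −0.0158, adjusted p = 0.094).

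The modules were close to each other in size. For delEx44 against WT at 4 weeks the medians were −0.46 for 8 N module genes (7 lower), −0.38 for 8 Q module genes (8 lower), −0.41 for 8 tested genes of the proximal membrane arm (8 lower) and −0.38 for 11 of the distal membrane arm (9 lower). With total counts alone these medians moved to −0.0646, 0.013, −0.00974 and 0.02, and 1 gene or none was lower in each. No test of a difference between modules was made.

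Corrected muscle had higher subunit levels than delEx44 muscle at 4 weeks. The sums were 8810, 8430 and 9260 CPM in corrected libraries, against the 6350, 6180 and 7080 CPM of delEx44, and these groups did not overlap. This comparison shares its delEx44 libraries with delEx44 against WT. With TMM scaling 33 of 36 subunits were higher and 0 lower (22.1% of all genes were called higher), while with total counts alone 4 were higher, Ndufa10, Ndufc1 and Ndufv1 among them, and 0 lower. The median was 0.40, against −0.01 over all genes, and with total counts alone 0.0783 against −0.33. In 36 subunits every corrected library was above every delEx44 library (28.3% of all genes).

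Ndufa10 had 314, 310 and 336 CPM in corrected muscle (0.62 ± 0.0782, adjusted p = 5e-05), and Ndufv1 had 320, 301 and 330 CPM (0.50 ± 0.0843, adjusted p = 4e-04). In both genes the corrected libraries lay within or near the WT range. Ndufs7 had 194, 181 and 198 CPM in corrected muscle (0.50 ± 0.0907, adjusted p = 0.00063). Ndufc1, a membrane-arm subunit, had 163, 161 and 166 CPM in corrected and 110, 110 and 126 CPM in delEx44 muscle (0.50 ± 0.0775, adjusted p = 0.00021). Ndufa2, Ndufab1 and Ndufb3 again missed the threshold, with 0.21 (95% interval 0.046 to 0.373), 0.23 (0.0519 to 0.405) and 0.26 (0.0566 to 0.457) and adjusted p-values of 0.054, 0.052 and 0.054.

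The remaining core subunits described were likewise above delEx44 in corrected 4-week muscle with TMM scaling. With total counts alone Ndufs3 and Ndufs8 turned to −0.0159 and −0.025. Neither they nor Ndufs1, Ndufv2 and Ndufs7 were called with total counts alone. Ndufs1 had 686, 620 and 711 CPM in corrected libraries (0.48 ± 0.107, adjusted p = 0.0026) and Ndufv2 had 496, 465 and 519 CPM (0.40 ± 0.0999, adjusted p = 0.0052). Ndufs3 had 172, 164 and 183 CPM (0.31 ± 0.0916, adjusted p = 0.015), and Ndufs8 171, 157 and 168 CPM (0.30 ± 0.0992, adjusted p = 0.026). All corrected libraries lay above the delEx44 libraries in these 4 genes.

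Against WT at 4 weeks, 0 of the 36 subunits and 0 of all 15013 genes were called in corrected muscle by edgeR (0% of all genes in either direction), with 1497 genes at an unadjusted p under 0.05. Subunit values ran between −0.14 (Ndufa12) and 0.09 (Ndufs7) with a median of 0.02, and no 95% interval reached below −0.311 or above 0.268. That 0 subunits passed the threshold does not show that the levels were alike.

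**Figure D2:**
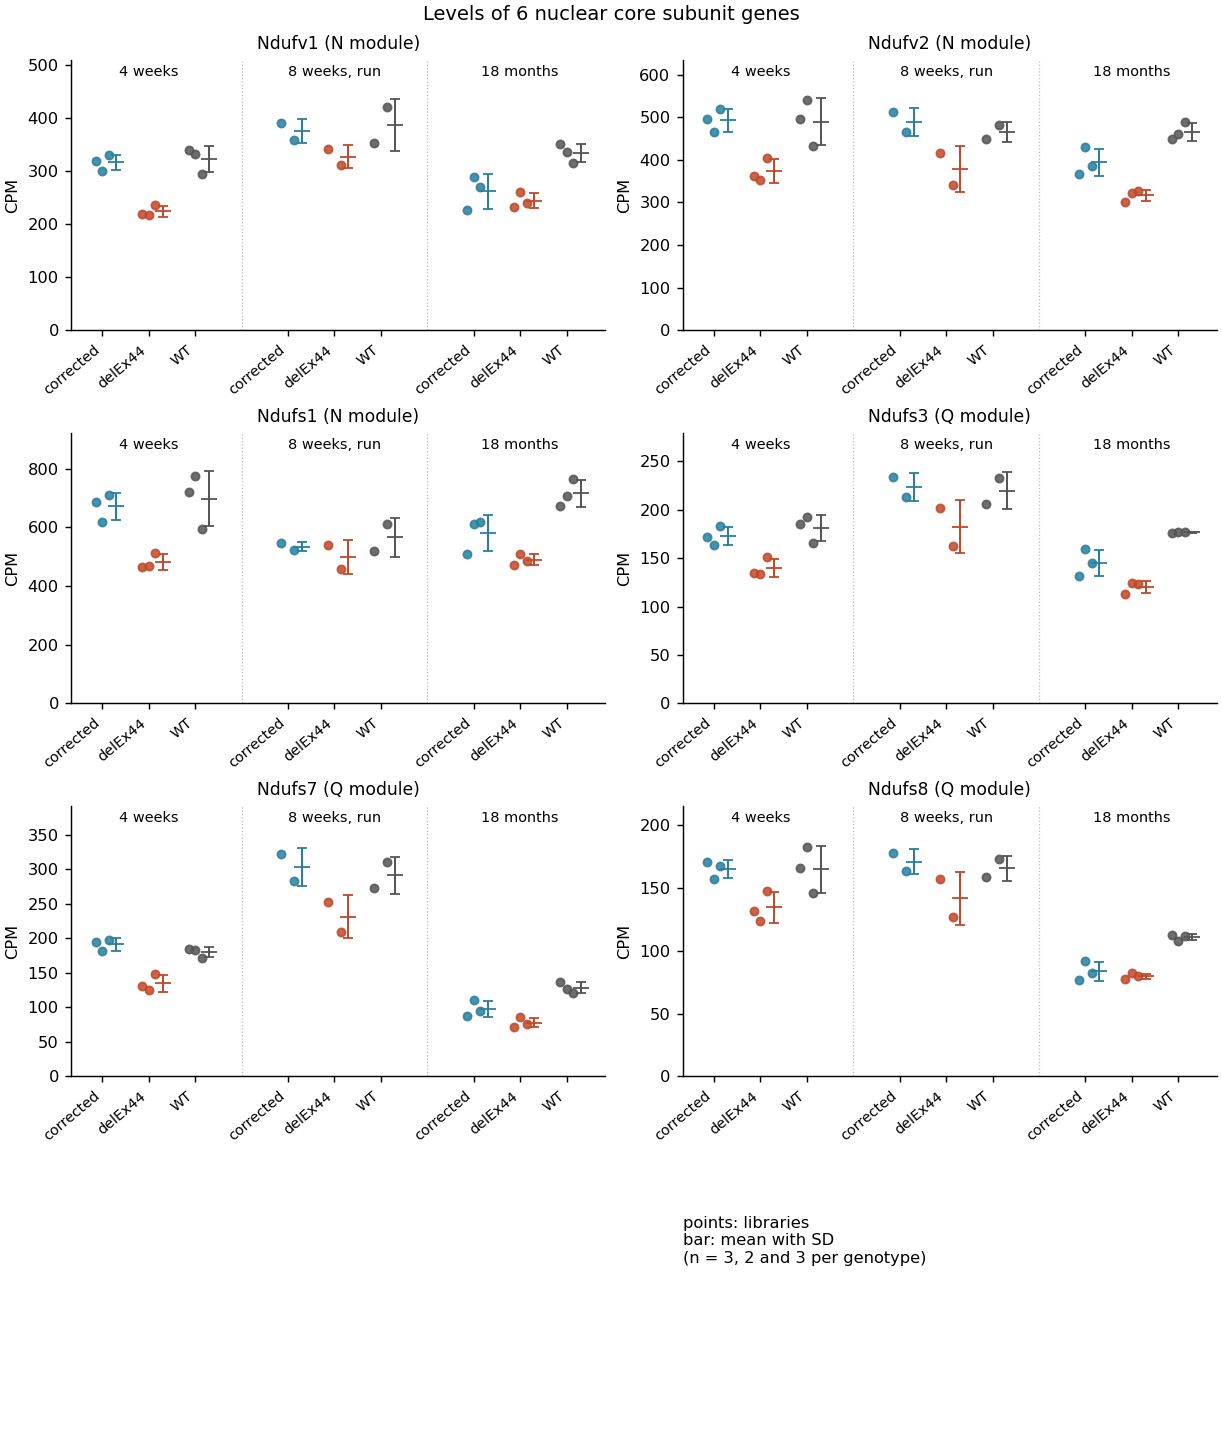
Levels of 6 nuclear core subunit genes in every library (TMM-scaled CPM), by stage and genotype, with the mean and SD of each group; the 18-month libraries were scaled apart from the others. In each panel the 3 delEx44 libraries at 4 weeks lie below the corrected ones. With total counts alone the log2 fold changes of Ndufs3 and Ndufs8 between these groups turned to −0.0159 and −0.025. Of the genes shown only Ndufv1 was called between these groups with total counts alone.

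After running, the subunit sums were 10500 and 9510 CPM in corrected, 8650 and 7200 CPM in delEx44 and 9020 and 9880 CPM in WT libraries, with delEx44 below the other genotypes and a wide gap between its 2 libraries. With TMM scaling 10 of 36 subunits were lower in delEx44 than in WT and 0 higher (14.2% of all genes were called lower), and with total counts alone 4 were lower, Ndufa8, Ndufa3, Ndufb4 and Ndufa12. The median was −0.25, and −0.117 with total counts alone. The WT and delEx44 libraries did not overlap in 28 subunits (32.6% of all genes). The count rested on single libraries. It was 2 without WT replicate 2, 1 without delEx44 replicate 2 (median −0.126) and 18 without delEx44 replicate 1 (median −0.384), and 0 when only these 2 groups were fitted.

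Ndufb4, a membrane-arm subunit whose level is uncertain because of its annotated copy, had 22.7 and 16.5 CPM in run delEx44 libraries and 27.7 and 27.9 CPM in WT (−0.50 ± 0.12, adjusted p = 0.0076). Ndufa8, an intermembrane-space subunit, had 175 and 141 CPM in delEx44 and 210 and 234 CPM in WT (−0.49 ± 0.101, adjusted p = 0.0034). Ndufa3, Ndufa12 and Ndufb5 followed with −0.44, −0.42 and −0.40 (adjusted p = 0.0066, 0.01 and 0.038). Groups did not overlap in Ndufb4 or Ndufa8. Of the core subunits described only Ndufs7 was called, with 253 and 209 CPM in delEx44 and 272 and 310 CPM in WT (−0.33 ± 0.111, adjusted p = 0.039), and the other 5 lay between −0.30 and −0.18.

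Corrected against delEx44 after running, 21 of 36 subunits were higher and 0 lower (10.8% of all genes were called higher), and with total counts alone 12 were higher. The median was 0.36, and 0.245 with total counts alone, and 32 subunits had groups that did not overlap (30.7% of all genes). Without delEx44 replicate 2 the count fell to 2 (median 0.233), without corrected replicate 1 it fell to 1, and with these 2 groups fitted alone it was 1. Ndufa8 stood at 251 and 233 CPM in corrected muscle (0.61 ± 0.102, adjusted p = 0.0014), and Ndufb4 at 30.2 and 27.8 CPM (0.56 ± 0.12, adjusted p = 0.0056). Ndufs4, a subunit that joins the N module to the rest of the arm, had 256 and 222 CPM in corrected and 183 and 148 CPM in delEx44 muscle (0.53 ± 0.144, adjusted p = 0.019). Ndufb5 and Ndufa12 followed with 0.53 and 0.51 (adjusted p = 0.013 and 0.0046). In these genes both corrected libraries lay above both of delEx44.

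In the core, Ndufs7 (0.39 ± 0.111, adjusted p = 0.023) and Ndufv2 (0.37 ± 0.122, adjusted p = 0.046) were higher in run corrected than in run delEx44 muscle with TMM scaling. Neither was called with total counts alone. Ndufs7 had 322 and 283 CPM in corrected libraries, and Ndufv2 had 512 and 465 CPM in corrected, 417 and 341 CPM in delEx44 and 449 and 483 CPM in WT libraries. Ndufs1 moved least among the core subunits described, with 547 and 523 CPM in corrected, 541 and 457 CPM in delEx44 and 519 and 613 CPM in WT libraries (0.10 ± 0.13 for corrected against delEx44, 95% interval −0.155 to 0.356, adjusted p = 0.62), and its groups overlapped. Ndufv1 had 392 and 360, 343 and 312, and 353 and 422 CPM in corrected, delEx44 and WT libraries, Ndufs3 234 and 213, 202 and 163, and 206 and 233 CPM, and Ndufs8 178 and 164, 157 and 127, and 159 and 173 CPM. These 3 genes had adjusted p-values between 0.075 and 0.18 for corrected against delEx44.

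Against WT after running, edgeR called 0 complex I genes in corrected muscle (0.02% of all genes in either direction, 3 of 15013, with 1455 at an unadjusted p under 0.05). Subunit values lay between −0.08 (Ndufs1) and 0.28 (Ndufc1), with a median of 0.08 and intervals that reached −0.336 and 0.55.

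At 18 months subunit genes were lower in delEx44 than in WT muscle. The sums were 5010, 5400 and 5270 CPM in delEx44 libraries and 7100, 7160 and 7320 CPM in WT libraries, without overlap. With TMM scaling 34 of 36 subunits were lower and 0 higher (23.8% of all genes were called lower), and with total counts alone 15 were lower and 0 higher. The median was −0.46, against 0.05 over all genes, and −0.151 against 0.35 with total counts alone. Groups did not overlap in 35 subunits (29.8% of all genes). The 2 subunits not called were Ndufa13 (−0.15, 95% interval −0.287 to −0.0204, adjusted p = 0.08) and Ndufb3 (−0.17, −0.364 to 0.0256, adjusted p = 0.17).

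The largest difference at 18 months was that of Ndufs7 (chromosome 10, 80249121 to 80256794, plus strand, GRCm38), with 71.9, 85.5 and 75.8 CPM in delEx44 and 137, 127 and 121 CPM in WT libraries (−0.72 ± 0.0976, adjusted p = 0.00022). Ndufa3 had 74, 73.1 and 72 CPM in delEx44 and 113, 122 and 120 CPM in WT (−0.70 ± 0.0798, adjusted p = 8.5e-05), and Ndufb4 had 16.9, 17.9 and 16.6 CPM in delEx44 and 25.1, 27 and 28.1 CPM in WT (−0.64 ± 0.072, adjusted p = 7.5e-05). The delEx44 libraries were close together and far below WT in all 3. Ndufa12 (−0.59, adjusted p = 8.8e-05) and Ndufa11 (−0.56, adjusted p = 0.00072) came next. These 5 genes were also lower with total counts alone.

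**Figure D3:**
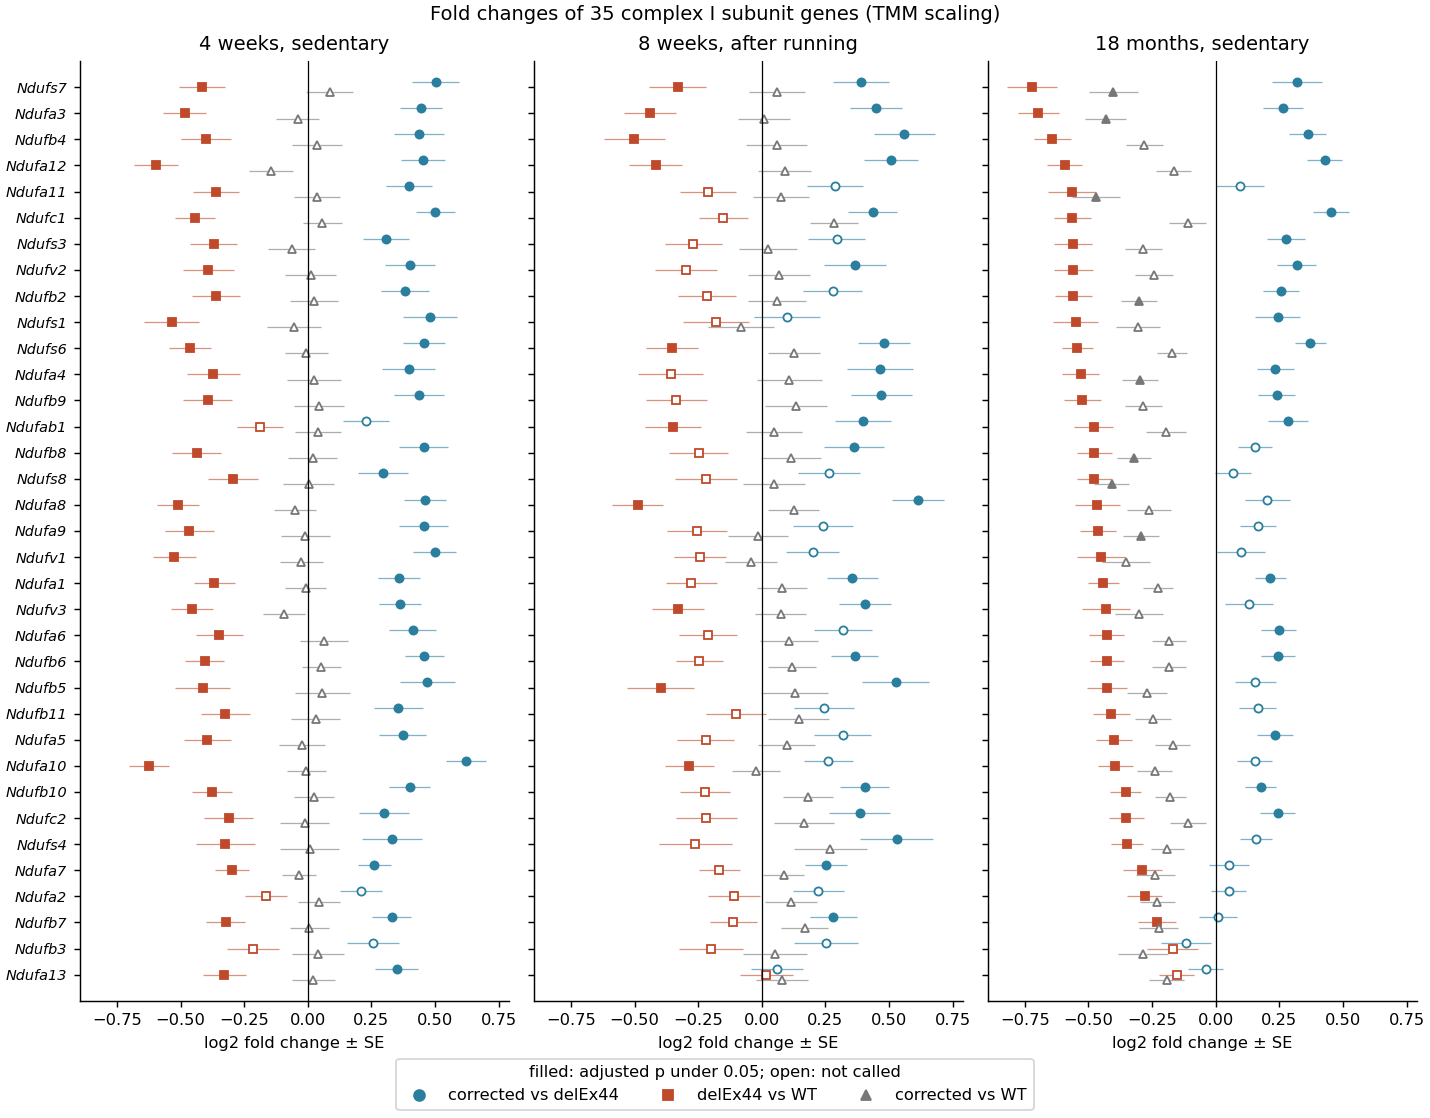
TMM-scaled log2 fold changes ± SE of 35 of the 36 tested subunit genes in 3 genotype comparisons at each stage, with filled symbols for an adjusted p under 0.05. Of all 36 in delEx44 against WT, 33, 10 and 34 are called lower at 4 weeks, after running and at 18 months (3, 4 and 15 with total counts alone, and 2 higher at 4 weeks), and the corrected against WT values lie near 0 at 4 weeks and below 0 for all 36 at 18 months.

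Corrected against delEx44 at 18 months, 20 of 36 subunits were higher and 0 lower with TMM scaling (19.6% of all genes were called higher), but with total counts alone 0 were higher and 6 lower, Ndufa13, Ndufa2, Ndufa7, Ndufb3, Ndufb7 and Ndufs8. The sums were 5640, 6490 and 6030 CPM in corrected libraries, all above the 5010 to 5400 CPM of delEx44. The median was 0.22, against −0.03 over all genes, and −0.0503 against −0.30 with total counts alone. Groups did not overlap in 21 subunits (25.5% of all genes). The count was 7 without delEx44 replicate 1, 13 without delEx44 replicate 3 and 12 without corrected replicate 2.

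Ndufc1 stood at 125, 121 and 114 CPM in corrected and 87.9, 86.6 and 88.4 CPM in delEx44 libraries at 18 months (0.45 ± 0.0717, adjusted p = 0.00084). Ndufa12 had 66.8, 76.1 and 68.3 CPM in corrected and 50.5, 54.3 and 52.1 CPM in delEx44 libraries (0.43 ± 0.0684, adjusted p = 0.00087). Neither gene had overlapping groups. Ndufs6, a zinc-binding subunit of the N module whose level is uncertain because of its annotated copy, had 93.4, 96.7 and 92.2 CPM in corrected and 69.8, 73.6 and 74.8 CPM in delEx44 libraries (0.37 ± 0.0597, adjusted p = 9e-04). Ndufb4 followed with 0.36 (adjusted p = 0.0029). Ndufs1 turned to −0.0281 with total counts alone, as did 11 other members called here.

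In the core at 18 months, 4 of the 6 genes described were higher in corrected than in delEx44 muscle with TMM scaling and 0 with total counts alone. Ndufv2 had 366, 430 and 386 CPM in corrected, 301, 322 and 327 in delEx44 and 448, 461 and 489 in WT libraries (0.32 ± 0.0759, adjusted p = 0.0076, for corrected against delEx44). Corrected libraries lay between the other genotypes. Ndufs3 had 132, 159 and 145 CPM in corrected, 113, 124 and 123 in delEx44 and 176, 177 and 177 in WT libraries. Ndufs1 had 509, 613 and 617 CPM in corrected, 472, 509 and 487 in delEx44 and 675, 709 and 765 in WT libraries. Ndufs7 had 86.7, 110 and 94.7 CPM in corrected libraries, again between the others. The 2 core subunits not called were Ndufv1, with 226, 290 and 270 CPM in corrected, 233, 260 and 241 in delEx44 and 351, 337 and 316 in WT libraries (0.10 ± 0.0938, 95% interval −0.0847 to 0.283, adjusted p = 0.43), and Ndufs8, with 77, 91.6 and 82.6, 77.9, 82 and 79.7, and 113, 108 and 112 CPM (0.07 ± 0.0694, 95% interval −0.068 to 0.204, adjusted p = 0.46). In both, the corrected libraries overlapped those of delEx44 and lay below WT.

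Against WT at 18 months, 8 of 36 subunits were lower in corrected muscle and 0 higher (2.43% of all genes were called lower), and with total counts alone 4 were lower, Ndufa11, Ndufa3, Ndufb8 and Ndufs8. All 36 values were below 0, with Ndufa11 the lowest at −0.47 and a median of −0.24, and in 33 subunits every corrected library was below every WT library (12.9% of all genes). Ndufs8 had the smallest adjusted p (−0.41 ± 0.0694, adjusted p = 0.02). Ndufa11, a membrane-arm subunit with an annotated copy, had 41.3, 49.7 and 42.4 CPM in corrected and 67.3, 59.2 and 58.2 CPM in WT libraries (−0.47 ± 0.0936, adjusted p = 0.029). Ndufa3 (−0.43), Ndufs7 (−0.40) and Ndufb8 (−0.32) followed, with adjusted p-values of 0.024, 0.046 and 0.033, and Ndufb2, Ndufa4 and Ndufa9 were also called. The count rested on single libraries, with 0 subunits called without any 1 of the 3 WT libraries or without corrected replicate 1, and 2, 3 and 1 without delEx44 replicates 1, 2 and 3. It was 2 without corrected replicate 3 and 28 without corrected replicate 2 (median −0.31, with 2 assembly factors). The DESeq2 test called 21, upper-quartile scaling 13, limma-voom 4 and a fit of these 2 groups alone 0.

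The 18-month corrected libraries were unlike each other in cell type markers. The 12 macrophage genes summed to 742, 307 and 1330 CPM in corrected replicates 1, 2 and 3, against 1120 to 1230 CPM in delEx44 and 264 to 380 CPM in WT libraries, with no macrophage gene at 0. The 8 slow fibre genes summed to 569, 4690 and 1920 CPM in those replicates, 3300 to 3990 CPM in delEx44 and 4010 to 4450 CPM in WT, with none at 0. Replicate 2, with the lowest macrophage and highest slow fibre sum, also had the highest subunit sum. The part of these cells in the subunit levels was not tested.

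Of the 7 assembly factors, 3 were called at every stage both in delEx44 against WT and in corrected against delEx44 muscle, 2 at none and 2 at some, and differences between factors were not tested. Ndufaf4, Ndufaf5 and Ndufaf6 were lower in delEx44 than in WT and higher in corrected than in delEx44 at all 3 stages with TMM scaling. With total counts alone Ndufaf5 kept all 6 calls, and Ndufaf4 and Ndufaf6 kept theirs after running and at 18 months but lost them at 4 weeks. Ndufaf2 and Ndufaf3 were called in no genotype comparison with TMM scaling, but with total counts alone both were higher in delEx44 than in WT at 4 weeks (0.395 and 0.382). In all, 4 factors at 4 weeks, 3 after running and 5 at 18 months were lower in delEx44 than in WT muscle, where 25%, 14.2% and 23.8% of all genes were called lower. With total counts alone 1, 3 and 3 were lower, and 2, 0 and 0 higher. In corrected against delEx44 muscle 4, 3 and 4 factors were higher, where 22.1%, 10.8% and 19.6% of all genes were called higher. With total counts alone 1, 3 and 3 were higher, while Ndufaf2 and Ndufaf3 were lower at 4 weeks and Ndufaf3 at 18 months.

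Ndufaf5, which in human cells hydroxylates an arginine of the NDUFS7 protein (chromosome 2, 140170649 to 140203689, plus strand, GRCm38), stood at 43.8, 40.6 and 45.3 CPM in corrected, 27.8, 32.6 and 31.3 CPM in delEx44 and 55.2, 55.9 and 52.6 CPM in WT libraries at 4 weeks. The 3 genotypes did not overlap, with corrected in the middle. The difference was −0.84 ± 0.0725 for delEx44 against WT (adjusted p = 2.1e-06), 0.50 ± 0.0724 for corrected against delEx44 (adjusted p = 0.00013) and −0.34 ± 0.0721 for corrected against WT (95% interval −0.477 to −0.194, adjusted p = 0.12). The last was not called by edgeR, and the DESeq2 test called 1 assembly factor there. After running Ndufaf5 had 56.5 and 57 CPM in corrected, 45.9 and 39.6 in delEx44 and 60.9 and 62.7 in WT libraries (0.41 ± 0.0881, adjusted p = 0.0059, and −0.53 ± 0.0881, adjusted p = 0.00084). At 18 months it had 37.6, 42.2 and 38.1 CPM in corrected, 24.2, 26.6 and 26.7 in delEx44 and 43.9, 43.9 and 45.7 in WT libraries (0.61 ± 0.0691, adjusted p = 0.00014, and −0.78 ± 0.0691, adjusted p = 2.2e-05). In each stage corrected libraries lay below all WT libraries and above all delEx44 libraries.

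Ndufaf4, which acts early in Q module assembly (chromosome 4, 24898083 to 24905001, plus strand, GRCm38), had 68.1, 65.2 and 66.1 CPM in corrected, 51, 47.4 and 58.4 in delEx44 and 68.1, 79.8 and 63 in WT libraries at 4 weeks (0.35 ± 0.0864, adjusted p = 0.0052, for corrected against delEx44, and −0.43 ± 0.0865, adjusted p = 0.0012, for delEx44 against WT). After running it had 65.5 and 68.3 CPM in corrected, 37.7 and 39.2 in delEx44 and 61.5 and 62 in WT libraries, the widest gap of any member at that stage (0.80 ± 0.107, adjusted p = 0.00045, and −0.68 ± 0.107, adjusted p = 0.00059). At 18 months the values were 87.1, 90.8 and 79.5 CPM in corrected, 50.5, 55 and 50.7 in delEx44 and 67.4, 82.7 and 92.6 in WT libraries (0.72 ± 0.106, adjusted p = 0.00055, and −0.63 ± 0.106, adjusted p = 0.00075). Corrected and WT libraries overlapped at 4 weeks and 18 months, while delEx44 libraries were below both at every stage.

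Ndufaf6, needed in human cells for the early membrane arm (chromosome 4, 11051045 to 11076205, minus strand, GRCm38), had 20.3, 21.2 and 20.3 CPM in corrected, 14.4, 14.1 and 16.6 in delEx44 and 23.1, 21.6 and 20.6 in WT libraries at 4 weeks (0.45 ± 0.079, adjusted p = 0.00049, and −0.54 ± 0.0792, adjusted p = 0.00011). At 18 months it had 16.8, 19.8 and 16.6 CPM in corrected, 10.5, 12.3 and 10.6 in delEx44 and 18.5, 20.5 and 19.2 in WT libraries (0.66 ± 0.0999, adjusted p = 0.00062, and −0.80 ± 0.0998, adjusted p = 0.00014). After running it had 27.4 and 26.2 CPM in corrected, 19.2 and 17 in delEx44 and 24.2 and 26.9 in WT libraries (0.57 ± 0.0963, adjusted p = 0.0016, and −0.50 ± 0.0963, adjusted p = 0.0022). In every stage delEx44 libraries lay below those of both other genotypes.

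**Figure D4:**
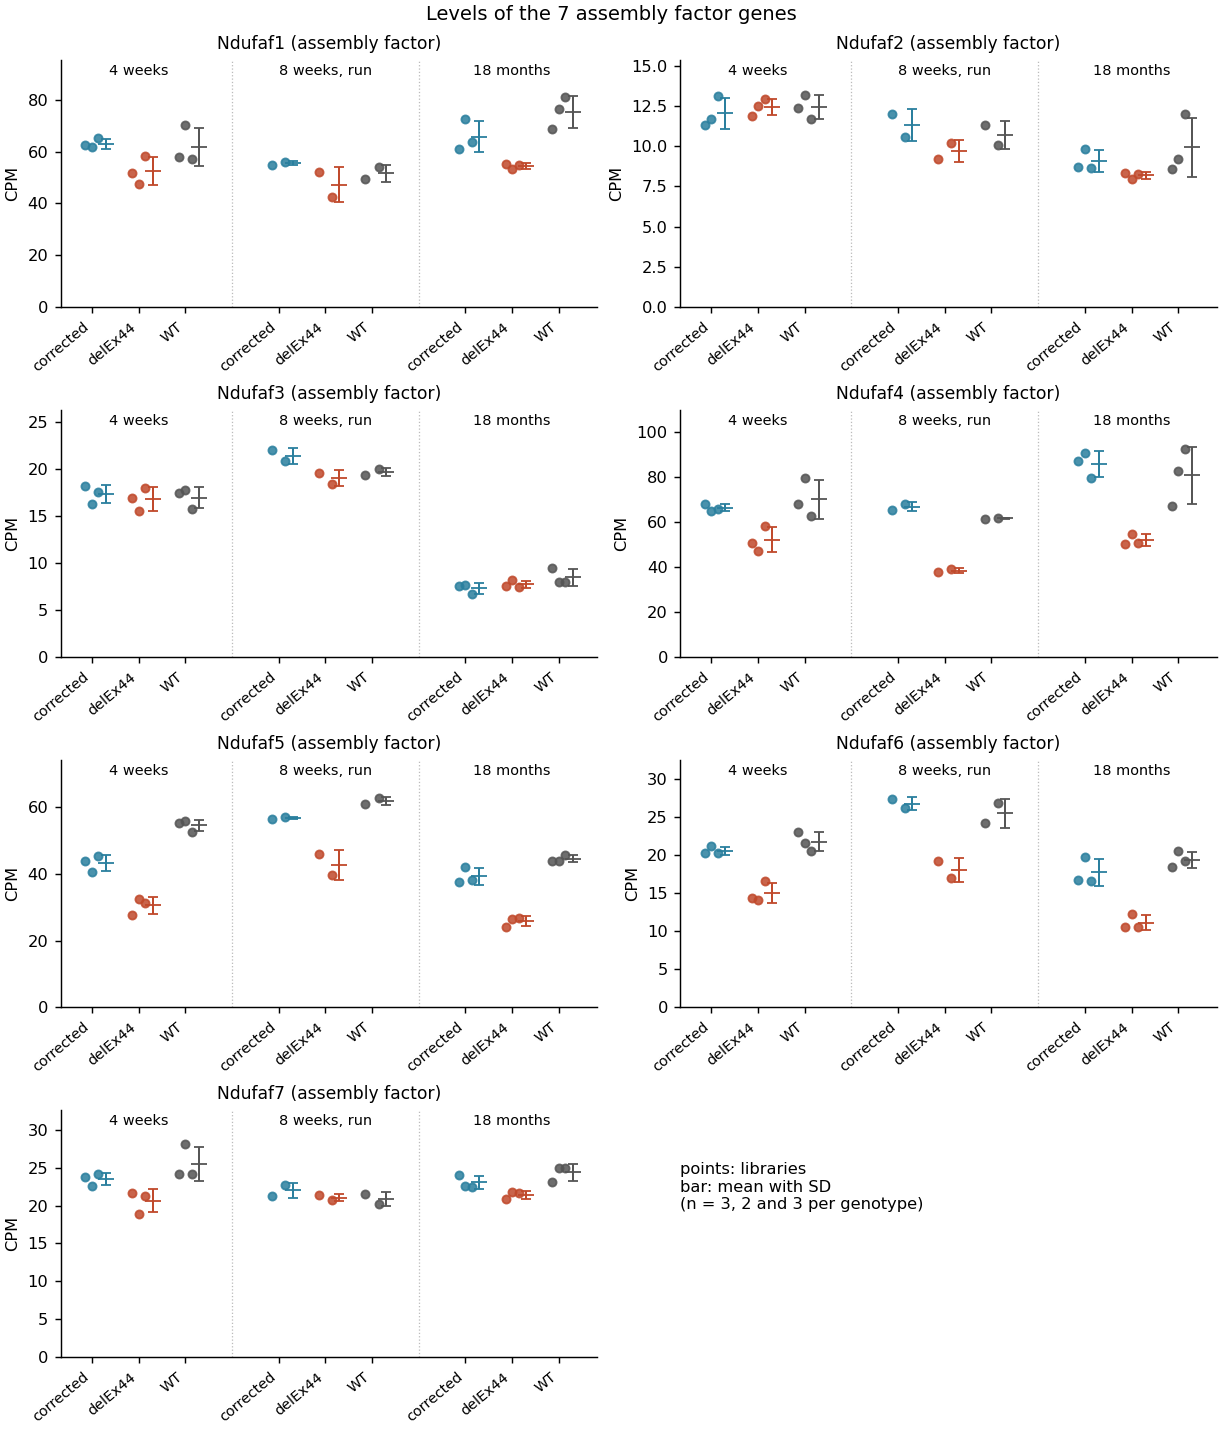
Levels of the 7 assembly factor genes in every library (TMM-scaled CPM), by stage and genotype, with the mean and SD of each group; the 18-month libraries were scaled apart from the others. Ndufaf4, Ndufaf5 and Ndufaf6 are lower in delEx44 than in WT at every stage (with total counts alone Ndufaf4 and Ndufaf6 were not called at 4 weeks). Ndufaf2 and Ndufaf3 are called in no genotype comparison with TMM scaling, but with total counts alone both were higher in delEx44 than in WT at 4 weeks.

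The other factors gave smaller values. Ndufaf1, a partner of Ecsit and Acad9 in membrane-arm assembly, had 62.4, 61.7 and 65.3 CPM in corrected, 51.7, 47.4 and 58.2 in delEx44 and 57.9, 70.2 and 57.2 in WT libraries at 4 weeks. Corrected muscle was above delEx44 (0.27 ± 0.0974, adjusted p = 0.037, and −0.0537 with total counts alone), and −0.24 in delEx44 against WT (adjusted p = 0.059). At 18 months it was −0.47 ± 0.0809 in delEx44 against WT (adjusted p = 0.00093) and 0.27 ± 0.0809 in corrected against delEx44 (adjusted p = 0.022, and −0.00493 with total counts alone). Ndufaf7, a mitochondrial methyltransferase, was lower in delEx44 at 4 weeks (−0.30 ± 0.0751 against WT, adjusted p = 0.0046) and at 18 months (−0.19 ± 0.0662, adjusted p = 0.037), and turned to 0.095 and 0.119 with total counts alone. Ndufaf2, a relative of Ndufa12, had 11.3, 11.7 and 13.1 CPM in corrected, 11.9, 12.5 and 12.9 in delEx44 and 12.4, 13.2 and 11.7 in WT libraries at 4 weeks, with all 3 genotypes overlapping.

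Promoters are shown for 4 members chosen after their values were seen, namely Ndufaf5 and Ndufaf4, which were called at every stage, and Ndufs7 and Ndufa10, the subunits with the largest difference between delEx44 and WT at 18 months and at 4 weeks. The sequences are RefSeq promoters of GRCm38.p6, from 250 bases before to 50 after the transcript start, and 39 of the 44 members matched. Capitals mark a match to the NRF1-type letters (GCGCA, any 1 base, then GCGC) in Ndufaf5 (chr2:140170396-140170695, plus strand) and Ndufaf4 (chr4:24897833-24898132, plus strand). In Ndufs7 (chr10:80249199-80249498, plus strand) they mark the YY1-type letters AAGATGGC, and Ndufa10 (chr1:92473709-92474008, minus strand) held none of the 4 motifs searched. NRF1, YY1, ERR and ETS factors are known regulators of respiratory chain genes.
Ndufaf5: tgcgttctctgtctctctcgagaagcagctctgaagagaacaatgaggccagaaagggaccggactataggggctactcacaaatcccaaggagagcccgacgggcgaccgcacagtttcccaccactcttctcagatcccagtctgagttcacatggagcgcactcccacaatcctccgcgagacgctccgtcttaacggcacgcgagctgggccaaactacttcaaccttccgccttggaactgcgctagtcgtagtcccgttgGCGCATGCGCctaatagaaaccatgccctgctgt
Ndufaf4: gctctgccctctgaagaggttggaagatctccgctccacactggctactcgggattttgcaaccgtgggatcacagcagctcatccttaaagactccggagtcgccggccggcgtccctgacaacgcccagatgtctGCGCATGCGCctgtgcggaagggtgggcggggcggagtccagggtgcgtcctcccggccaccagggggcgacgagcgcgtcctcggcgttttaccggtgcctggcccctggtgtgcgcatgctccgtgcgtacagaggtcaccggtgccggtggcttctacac
Ndufs7: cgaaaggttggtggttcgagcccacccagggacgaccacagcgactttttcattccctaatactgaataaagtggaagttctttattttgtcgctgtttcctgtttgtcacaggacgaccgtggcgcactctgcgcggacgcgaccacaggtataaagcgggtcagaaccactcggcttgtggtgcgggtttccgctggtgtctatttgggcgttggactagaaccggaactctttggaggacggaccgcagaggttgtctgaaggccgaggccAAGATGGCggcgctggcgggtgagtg
Ndufa10: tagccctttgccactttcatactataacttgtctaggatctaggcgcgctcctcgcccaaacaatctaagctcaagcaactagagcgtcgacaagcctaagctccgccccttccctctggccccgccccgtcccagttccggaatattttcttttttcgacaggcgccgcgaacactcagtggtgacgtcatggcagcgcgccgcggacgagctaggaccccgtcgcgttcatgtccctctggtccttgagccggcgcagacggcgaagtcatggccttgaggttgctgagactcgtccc
The NRF1-type match starts 16 bases after the transcript start in Ndufaf5 and 113 bases before it in Ndufaf4, and the YY1-type match 24 bases after it in Ndufs7. On either strand, the NRF1-type letters were found in 9 of 39 members (23.1%), 7 subunits and 2 factors, against 5.19% of all 27025 promoters. The YY1-type letters were in 7 members (17.9%, against 3.19%), the ETS-type letters CCGGAAG in 5 (12.8%, against 9.93%) and the ERR-type letters AAGGTCA in 3 (7.69%, against 5.38%). No letters of different motifs overlap in the promoters printed. These are matches of letters, and binding was not measured.

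The number of subunits called between run and 4-week muscle depended on the scaling in every genotype. In WT 6 of 36 subunits were higher after running (13.4% of all genes were called higher), 16 with total counts alone, and 0 were lower either way, with a median of 0.10. The count was 1 without WT run replicate 2. In delEx44 18 were higher (16.4% of all genes were called higher), 8 with total counts alone, and 0 were lower, with a median of 0.26, and 5 were higher without delEx44 run replicate 1 (median 0.12), while the median was 0.41 without delEx44 run replicate 2. In corrected muscle 13 were higher (12.3% of all genes), 21 with total counts alone, and 0 were lower, with a median of 0.24. That count was 7 and 6 without corrected 4-week replicates 1 and 2, and 2 without corrected run replicate 1.

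Markers of other cells also differed between run and 4-week muscle. In delEx44 12 of 12 macrophage, 6 of 8 fibroblast and matrix and 7 of 8 regenerating fibre genes were lower after running, also with total counts alone, and 7 of 12 fast fibre genes were higher (5 higher and 1 lower with total counts alone). In corrected muscle 6 of the macrophage, 8 of the fibroblast and matrix, 1 of the regenerating fibre and 2 of the fast fibre genes were lower. In WT those counts were 0, 6, 4 and 3 lower, with 1 regenerating fibre gene higher. The 8 slow fibre genes summed to 1940 to 2160 CPM in run and 1320 to 2120 CPM in 4-week corrected libraries. In delEx44 these sums were 1440 to 1860 and 929 to 1270 CPM, and in WT 2410 to 3320 and 652 to 1900 CPM. With DESeq2 size factors 0, 2 and 2 slow fibre genes were higher after running in corrected, delEx44 and WT muscle (0, 1 and 4 with total counts alone). The 7 neutrophil genes summed to 76.1 to 162 CPM in run and 0.845 to 2.7 CPM in 4-week corrected libraries, and to 59 to 200 CPM in run and 4.86 to 23.1 CPM in 4-week delEx44 libraries. In WT they summed to 129 to 188 CPM after running and 0.315 to 238 CPM at 4 weeks, the highest being replicate 3. The part of these cells in the subunit differences between run and 4-week muscle was not tested.

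Ndufs7 had the largest difference from 4 weeks in all 3 genotypes. It stood at 322 and 283 CPM in run corrected muscle, against 194, 181 and 198 CPM at 4 weeks (0.66 ± 0.0999, adjusted p = 0.00067). In delEx44 it stood at 253 and 209 CPM after running and at 131, 125 and 148 CPM at 4 weeks (0.78 ± 0.0999, adjusted p = 0.00015), and in WT at 272 and 310 CPM after running and 185, 183 and 172 CPM at 4 weeks (0.69 ± 0.0999, adjusted p = 4e-04). Run and 4-week libraries did not overlap in any genotype. Ndufa2 was also higher in all 3 (0.44, 0.43 and 0.37 in corrected, delEx44 and WT, adjusted p = 0.0041, 0.0032 and 0.0098), as were Ndufb6 (0.37, 0.47 and 0.31), Ndufa8 (0.47, 0.32 and 0.30) and Ndufa7 (0.36, 0.37 and 0.24). In delEx44 Ndufv1 (0.55 ± 0.0931, adjusted p = 0.00084) and Ndufc1 (0.50 ± 0.0856, adjusted p = 9e-04) came next, and in corrected muscle Ndufc1 (0.43 ± 0.0856, adjusted p = 0.0033) and Ndufa4 (0.40 ± 0.116, adjusted p = 0.023). In WT, Ndufb4 (0.36 ± 0.109, adjusted p = 0.027) was the remaining subunit called. Ndufs1 was not called, at −0.33 in corrected (adjusted p = 0.059), 0.05 in delEx44 and −0.30 in WT (adjusted p = 0.076).

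Assembly factors moved both ways after running. In delEx44 Ndufaf5 (0.49 ± 0.08, adjusted p = 0.00068) and Ndufaf6 (0.27 ± 0.0879, adjusted p = 0.029) were higher, and Ndufaf4 (−0.44 ± 0.0981, adjusted p = 0.004) and Ndufaf2 (−0.36 ± 0.0987, adjusted p = 0.013) lower (19.3% of all genes were called lower), and 2 factors were called without delEx44 run replicate 1. In corrected muscle Ndufaf5 (0.39 ± 0.0798, adjusted p = 0.0036), Ndufaf6 (0.38 ± 0.0869, adjusted p = 0.0068) and Ndufaf3 (0.30 ± 0.0834, adjusted p = 0.018) were higher, and 1 factor was called without corrected run replicate 1. In WT only Ndufaf7 was called (−0.29 ± 0.0849, adjusted p = 0.023, with 14.2% of all genes called lower), and 0 factors were without WT 4-week replicate 2 or without either WT run library, while 2 were without delEx44 4-week replicate 3. With total counts alone Ndufaf7 was not called in WT, and Ndufaf3, Ndufaf5 and Ndufaf6 were higher. In delEx44 that scaling called Ndufaf5 higher and Ndufaf1 (−0.312), Ndufaf2 and Ndufaf4 lower, while Ndufaf6 was not called. In corrected muscle it kept the calls of Ndufaf3, Ndufaf5 and Ndufaf6.

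Interactions tested whether a genotype difference itself changed between stages. For running against 4 weeks 0 members were called by edgeR for delEx44 against WT (0.879% of all genes in either direction), corrected against delEx44 (1.42%) and corrected against WT (0%, added after the data were seen), with 2642, 2763 and 1035 genes at an unadjusted p under 0.05. The DESeq2 test and total counts alone each called 1 assembly factor for corrected against delEx44, with total counts Ndufaf4 (0.661, adjusted p = 0.026). Total counts alone also called Ndufaf4 for delEx44 against WT (−0.518 ± 0.14, adjusted p = 0.042). The smaller number of subunits called in run than in 4-week delEx44 muscle is thus not shown to be a smaller difference. The subunit median was 0.129 for delEx44 against WT, and it lay at −0.0122 without delEx44 run replicate 1 and at 0.242 without replicate 2. For corrected against delEx44 it was −0.022, and 0.121 and −0.166 without those libraries.

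Between 18 months and 4 weeks, 2 of 36 subunits were called lower for corrected against delEx44, a smaller share than the 8.12% of all genes called lower. Ndufa10 was 0.62 in corrected against delEx44 at 4 weeks and 0.15 at 18 months, where the libraries stood at 213, 245 and 235 CPM in corrected and 198, 218 and 208 CPM in delEx44 muscle, with overlap. The interaction was −0.44 ± 0.103 (adjusted p = 0.01). Ndufa13, a subunit also known as GRIM-19, had 389, 374 and 405 CPM in corrected and 298, 286 and 332 CPM in delEx44 muscle at 4 weeks, and 149, 164 and 156 CPM in corrected and 152, 172 and 158 CPM in delEx44 muscle at 18 months, so that its groups overlapped only at the later age. Its interaction was −0.36 ± 0.102 (adjusted p = 0.026), which was lost without delEx44 4-week replicate 1 or 2, corrected 4-week replicate 3, delEx44 18-month replicate 2 or corrected 18-month replicate 1 (adjusted p = 0.06, 0.058, 0.06, 0.066 and 0.064), and 8 subunits were called without corrected 18-month replicate 2. Among factors 0 were called, and 1 without WT 18-month replicate 1.

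For delEx44 against WT the age interaction called 0 members by edgeR (10.9% of all genes in either direction, 3810 at an unadjusted p under 0.05), with a subunit median of −0.0595, while upper-quartile scaling called 2 subunits and total counts alone 3. For corrected against WT, added after the data were seen, 0 members were called (0.495% of all genes, 2421 at an unadjusted p under 0.05). All 36 subunit values were below 0 there, with a median of −0.232, and the largest was that of Ndufa11 (−0.50, adjusted p = 0.074). Without corrected 18-month replicate 2 the count was 5, and the DESeq2 test called 4. Age coincides with the count table, with vector dose and with vector type in this contrast, and these cannot be told apart.

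Most genes of the other respiratory complexes were also lower in delEx44 than in WT muscle at 4 weeks and 18 months with TMM scaling. In delEx44 against WT at 4 weeks 3 of 4 complex II, 8 of 9 complex III, 9 of 11 complex IV and 11 of 15 complex V genes were lower, with medians of −0.36, −0.34, −0.39 and −0.34, whereas with total counts alone 0, 0, 1 and 0 were lower and the medians were 0.0372, 0.0563, 0.00919 and 0.0595. Sdha of complex II (−0.56 ± 0.0944, adjusted p = 3e-04) and Cox6a2, the muscle form of a complex IV subunit (−0.87 ± 0.0784, adjusted p = 2.9e-06), were among them. At 18 months 4 of 4, 9 of 9, 11 of 11 and 13 of 15 were lower in delEx44 (1, 3, 2 and 2 with total counts alone), whereas after running 0, 0, 4 and 1 were lower (0, 0, 1 and 0 with total counts alone). Corrected against delEx44, 3, 8, 10 and 10 genes of complexes II to V were higher at 4 weeks (1, 0, 1 and 0 with total counts alone) and 0, 1, 7 and 2 after running (0, 1, 4 and 1). At 18 months 1, 1, 1 and 3 of them were higher, beside 20 of 36 complex I subunits and 19.6% of all genes, and with total counts alone 0 were higher and 2, 2, 5 and 4 lower.

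The complex I sum divided by the sum over complexes II to V does not depend on library scaling. At 4 weeks it was 0.409 to 0.41 in corrected, 0.391 to 0.401 in delEx44 and 0.399 to 0.409 in WT libraries. After running it was 0.41 to 0.42 in corrected, 0.393 to 0.396 in delEx44 and 0.403 to 0.41 in WT libraries, and at 18 months 0.393 to 0.41, 0.387 to 0.392 and 0.387 to 0.391 in corrected, delEx44 and WT libraries. Every corrected library lay above every delEx44 library of its stage. The delEx44 libraries lay below WT without overlap after running and overlapped WT at 4 weeks and 18 months. This ratio was not tested.

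**Figure D5:**
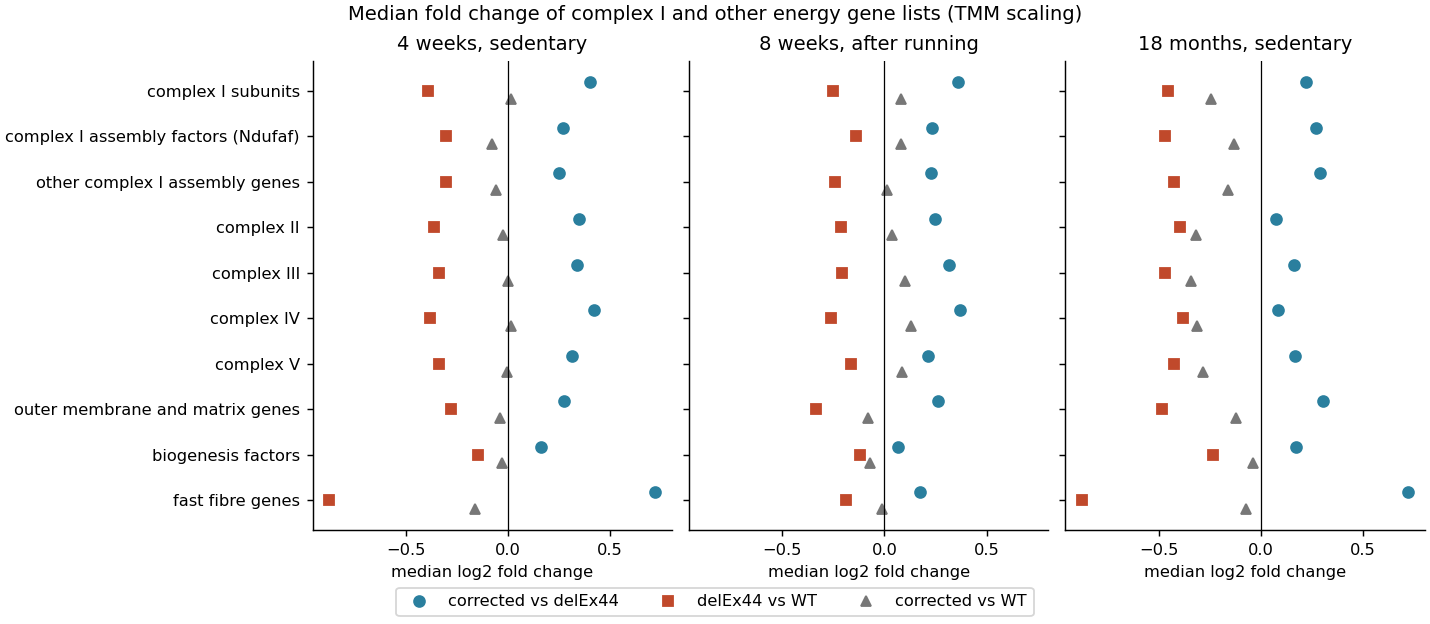
Median TMM-scaled log2 fold change of complex I subunits, assembly factors and other gene lists in 3 genotype comparisons at each stage. The medians of complexes I to V lie between −0.34 and −0.39 in delEx44 against WT at 4 weeks (between 0.00454 and 0.0595 with total counts alone), while fast fibre genes lie further out at −0.88.

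Of 10 further genes for complex I assembly outside the Ndufaf series, 6 were lower in delEx44 at 4 weeks, 5 after running and 9 at 18 months, while with total counts alone 1, 2 and 1 were lower and 3 were higher at 4 weeks. Ecsit (−0.53 ± 0.0636, adjusted p = 2.2e-05) and Acad9 (−0.52 ± 0.0672, adjusted p = 3.7e-05), both of the membrane-arm assembly complex, led at 4 weeks. In corrected against delEx44 muscle 6, 4 and 5 of the 10 were higher at the 3 stages (0, 2 and 1 with total counts alone, when 2, 0 and 2 were lower), with Timmdc1 (0.39 ± 0.063, adjusted p = 0.00095) and Tmem186 (0.51 ± 0.0832, adjusted p = 0.00099) in front at 18 months. Of 10 mitochondrial biogenesis regulators 4 were lower in delEx44 at 4 weeks and none higher, but with total counts alone 5 were higher and 0 lower.

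Fast fibre genes were lower, and macrophage and regenerating fibre genes higher, in delEx44 than in WT muscle at 4 weeks, while most slow fibre and endothelial genes were not called with TMM scaling. The 12 fast fibre genes summed to 207000 to 235000 CPM in corrected, 114000 to 145000 in delEx44 and 236000 to 258000 CPM in WT libraries at 4 weeks, and 11 of 12 were lower in delEx44 than in WT (10 with total counts alone). The subunit sum divided by the fast fibre sum was 0.0448 to 0.0557 in delEx44 and 0.0318 to 0.0394 in WT libraries at 4 weeks, and 0.0626 to 0.072 and 0.0438 to 0.0465 at 18 months, so that the fast fibre genes fell further than the subunits. After running the fast fibre sums were 183000 to 208000, 169000 to 181000 and 199000 to 205000 CPM in corrected, delEx44 and WT libraries, and 1 of 12 genes was lower in delEx44 (1 higher and 1 lower with total counts alone). All 12 macrophage genes were higher in delEx44 than in WT at each stage, also with total counts alone (11 at 18 months with DESeq2 size factors). Their sums at 4 weeks were 609 to 855 CPM in corrected, 2080 to 3260 in delEx44 and 361 to 421 CPM in WT libraries. The 8 regenerating fibre genes summed to 96.4 to 144, 507 to 1120 and 82.2 to 97.3 CPM in those groups. For 4-week delEx44 against WT, 2 of 8 slow fibre genes were higher and 0 lower (median −0.0859, and 0.323 with total counts alone), and their sums overlapped, at 1320 to 2120, 929 to 1270 and 652 to 1900 CPM in corrected, delEx44 and WT libraries. Of 8 endothelial genes 0 were higher and 1 lower (median −0.0268), whereas with total counts alone 4 were higher (median 0.374). In bulk muscle, fewer cells of a type and less RNA per cell cannot be told apart, and the part of these cells in the subunit differences was not tested.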

How the data were processed

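Reads per gene symbol were counted by the authors and deposited as raw, whole-number count tables, 1 for the 4-week and 8-week libraries and 1 for the 18-month libraries, each with 24062 symbols and 5 records that name no gene. Those records held 27.4 to 34.2% and 42.2 to 48.3% of a library's records in the 2 tables and were left out of library sizes and tests. Per the submitters' processing notes the build was mm10, the aligners named were STAR 2.7.2b and Bowtie2 2.3.4.3, and HTSeq, SAMtools 1.9, edgeR and Trim Galore were also listed. The choice between these aligners for the counts was not given in the sources used here, nor were the annotation and strand setting.

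Counts were tested with edgeR 4.0.16 in R 4.3.3 (TMM scaling, filterByExpr, robust quasi-likelihood F-test, p-values adjusted over all genes of a fit). The fits held the 15 libraries of the first table (15013 genes), the 9 of the second (14337) and, for age interactions, all 18 sedentary libraries (14937). CPM values use the effective library sizes. Alternatives were other scalings, no filter, DESeq2 1.42.0, limma-voom 3.58.1, the 2 groups alone, a replicate block and each library left out. The procedure was tested on simulated data. The columns of 2 WT libraries at 18 months are known by genotype only. Libraries of a group differed from each other by more than sampling noise. Their labels carry separate numbers but do not state whether they came from separate animals, so p-values measure the spread between these libraries. The members, gene lists and tests were chosen with earlier results of these data known. Full values were given for 6 nuclear core subunits, the 5 subunits and 3 factors with the largest called change per comparison, and members called in an interaction. Counts and medians cover all members, and 1 of them is not reported here by its own values. The promoter choice came after the values were seen.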

Additional observations from a re-analysis of the deposited data

Results flagged for a closer look

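The difference between corrected and delEx44 muscle was tested for a change between 4 weeks and 18 months. Of 36 subunit genes 2 passed, both lower, a smaller share than the 8.12% of all genes called lower. Ndufa10 had an interaction of −0.4372 on the log2 scale (SE 0.103, 95% interval −0.64 to −0.234, edgeR adjusted p = 0.01). Its difference was 0.15 at 18 months and 0.62 at 4 weeks, and its adjusted p stayed between 0.00071 and 0.031 in the alternatives run. Ndufa13 had an interaction of −0.3606 (SE 0.102, 95% interval −0.561 to −0.16, edgeR adjusted p = 0.026), and leaving out any of 5 libraries took it past the threshold. Table, age, vector dose and vector type change together in this contrast and cannot be told apart. No group had 4 or more libraries, so no library was tested for standing apart.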

How the results depend on the processing

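Total counts without scaling factors moved the most results, and other scalings, no filter, DESeq2 and limma-voom kept the subunit medians of delEx44 against WT between −0.392 and −0.356 at 4 weeks and between −0.503 and −0.457 at 18 months. With total counts alone the subunits called were 5 (median 0.00454), 4 (median −0.117) and 15 (median −0.151, with 3 factors) for delEx44 against WT at 4 weeks, after running and at 18 months. For corrected against delEx44 they were 4 (median 0.0783), 12 (median 0.245) and 6 (median −0.0503), and for corrected against WT at 18 months 4. For running they were 21 in corrected, 8 in delEx44 (median 0.0991) and 16 in WT (3 factors). In the running interactions 1 factor was called for delEx44 against WT (subunit median −0.131) and 1 for corrected against delEx44 (subunit median 0.185). For the age interactions the subunits called with total counts alone were 3 (delEx44 against WT) and 2 (corrected against WT). Corrected against WT at 18 months gave 13 subunits with upper-quartile scaling, 21 with DESeq2, 4 with limma-voom and 0 with 2 groups alone. Upper-quartile scaling gave 10 subunits and 2 factors for running in WT, and 2, 4 and 1 subunits for the age interactions of delEx44 against WT, corrected against delEx44 and corrected against WT. The DESeq2 test gave 11 subunits for running in WT, 4 for the age interaction of corrected against WT, and 1 factor each for corrected against WT at 4 weeks and the running interaction of corrected against delEx44. No filter gave 4 subunits for the age interaction of corrected against delEx44. With 2 groups alone delEx44 against WT after running gave 0 subunits, corrected against delEx44 gave 1, and running in WT gave 0 factors. The cause was not tested. Leaving out 1 library gave 0 to 28 subunits, 0 to 2 factors and medians of −0.31 to −0.194 for corrected against WT at 18 months, and 7 to 24 subunits for corrected against delEx44. After running it gave 1 to 28 subunits (median 0.233 to 0.497) for corrected against delEx44 and 1 to 18 (median −0.384 to −0.126) for delEx44 against WT. For running against 4 weeks it gave 2 to 16 subunits and 1 to 3 factors in corrected, 5 to 23 and 2 to 4 in delEx44 (median 0.12 to 0.41), and 1 to 9 and 0 to 2 in WT. Age interactions gave 1 to 8 subunits and 0 to 1 factors for corrected against delEx44 and 0 to 5 subunits for corrected against WT, and running interactions gave medians of −0.166 to 0.121 and −0.0122 to 0.242 for corrected against delEx44 and delEx44 against WT. Where a library left out leaves a lone sample, that sample is assumed to vary like the other groups. Among 229 called gene and comparison pairs, 38 of 4640 refits turned round, all with total counts alone. For delEx44 against WT at 4 weeks these were Ndufa1 0.0287, Ndufa11 0.0345, Ndufa13 0.0673, Ndufa4 0.0252, Ndufa6 0.0484, Ndufa7 0.0986, Ndufaf7 0.095, Ndufb10 0.02, Ndufb11 0.0727, Ndufb2 0.0358, Ndufb7 0.0731, Ndufb9 0.0036, Ndufc2 0.0835, Ndufs3 0.0261, Ndufs4 0.0724, Ndufs8 0.103 and Ndufv2 0.00548. For corrected against delEx44 at 4 weeks they were Ndufa7 −0.0596, Ndufaf1 −0.0537, Ndufc2 −0.0232, Ndufs3 −0.0159 and Ndufs8 −0.025. For delEx44 against WT at 18 months they were Ndufa2 0.0267, Ndufa7 0.0159, Ndufaf7 0.119 and Ndufb7 0.0726, and for corrected against delEx44 Ndufa1 −0.0593, Ndufa3 −0.0126, Ndufa4 −0.0404, Ndufa5 −0.0413, Ndufa6 −0.026, Ndufaf1 −0.00493, Ndufb10 −0.0983, Ndufb2 −0.0169, Ndufb6 −0.029, Ndufb9 −0.0351, Ndufc2 −0.0294 and Ndufs1 −0.0281. The fit with a replicate block gave 14 subunits, 3 factors and a median of 0.223 for corrected against delEx44 at 18 months. Same-numbered libraries had correlations of −0.0665, 0.0485 and −0.0527, within the −0.114 to 0.171 of differently numbered ones. A pairing by number was thus not shown, and 3 libraries per group cannot exclude one. No other paired analysis was possible because 2 of the 3 WT columns at 18 months could not be tied to a numbered sample, and the libraries of other groups share fewer than 2 numbers in their labels.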
